A study of Mus musculus with 1049 samples.

Results

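The cells described here are young dermal fibroblasts divided by how much Gpx3 message each cell held. Of 735 fibroblasts kept from newborn, young and old mice, the young ones made up 33.5%, and they came from 2 experiments. A cell counted as Gpx3-high when its Gpx3 level reached the median of the young cells of its own experiment and as Gpx3-low when it did not, which gave 71 high and 71 low cells in experiment 1 and 52 high and 52 low cells in experiment 2. Levels of single cells are CPM, the reads of a gene scaled to a common total of reads on genes. The members were chosen by their Gpx3 level itself, so the Gpx3 levels below describe the classes and were not tested.

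All mice were C57Bl/6. Young mice were 2 months old, old mice 18 months, and newborn pups 1.5 or 2.5 days. Skin was freed of anagen patches and subdermis and digested, the cells were stained for CD45, CD117, EpCAM, CD31, CD34 and Pdgfra, and viable single fibroblasts were sorted into 96-well plates and profiled with Smart-seq2, which sequences full-length cDNA of 1 cell per well and has no molecular identifiers. The labels tie each cell to an age and an experiment but name no mice, so the experiment was the replicate (n = 2), and p-values measure the spread between 2 experiments only. No treatment separates the classes: both lay on the same plates of the same experiment, and the 9 plates carried old cells as well. Per experiment and class, reads were added over cells, which gave 4 young sums of 73915193 to 87741795 reads. Levels of sums are CPM after TMM scaling, a correction for differences in RNA composition between sums.

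Gpx3 encodes the secreted, plasma form of glutathione peroxidase, a selenoprotein that reduces hydrogen peroxide and lipid hydroperoxides with glutathione as the electron donor. It is best known as a kidney product circulating in blood, and stromal and fat cells make it too. Dermal fibroblasts are not uniform: papillary fibroblasts lie under the epidermis, while reticular and fascia fibroblasts lie deeper and build most of the fibrous matrix.

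The start-site windows of 3 genes on which the split turns are shown, because Gpx3 defines the classes while Fgl2 and S100a4 lay on opposite sides of it. Each window runs from 250 bases before to 50 bases after the RefSeq start site of build GRCm38.p6, plus strand, 5′ to 3′: chr11:54902604-54902903 for Gpx3, chr5:21372423-21372722 for Fgl2 and chr3:90603520-90603819 for S100a4. Capitals mark matches to any of 3 motifs searched on both strands: the antioxidant response element TGACNNNGC, the xenobiotic response element core GCGTG and the TATA box TATAAA.
Gpx3: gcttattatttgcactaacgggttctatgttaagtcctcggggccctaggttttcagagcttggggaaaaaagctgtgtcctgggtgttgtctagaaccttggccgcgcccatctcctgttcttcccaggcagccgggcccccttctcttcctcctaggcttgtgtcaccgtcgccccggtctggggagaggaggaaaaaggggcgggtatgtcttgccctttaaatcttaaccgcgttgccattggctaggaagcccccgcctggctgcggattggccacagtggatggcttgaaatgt
Fgl2: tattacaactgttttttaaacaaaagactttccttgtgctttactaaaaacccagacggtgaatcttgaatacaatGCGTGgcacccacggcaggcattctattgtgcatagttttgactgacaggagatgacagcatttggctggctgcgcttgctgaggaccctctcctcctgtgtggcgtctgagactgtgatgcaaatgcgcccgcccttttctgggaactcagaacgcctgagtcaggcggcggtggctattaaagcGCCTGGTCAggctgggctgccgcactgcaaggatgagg
S100a4: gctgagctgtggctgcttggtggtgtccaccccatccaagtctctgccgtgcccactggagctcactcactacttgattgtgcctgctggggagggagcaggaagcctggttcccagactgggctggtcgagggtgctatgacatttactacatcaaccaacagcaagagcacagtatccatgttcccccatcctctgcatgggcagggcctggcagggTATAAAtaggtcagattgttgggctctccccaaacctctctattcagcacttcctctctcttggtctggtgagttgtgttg
The Gpx3 window held no match, but the GENCODE gene begins before this window, and the bases there were not searched. The Fgl2 window held a GCGTG at position -174 and, on the minus strand, an antioxidant response element at position 12, counting the start site as 0. The S100a4 window held a TATAAA at position -31. For comparison, 27025 RefSeq windows were searched, the first listed for each gene and not from every chromosome. Of these, 12.5% held the antioxidant element, 32.5% the xenobiotic core and 14.2% the TATA box. None of the matches overlapped another, and a match describes letters only.

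Most young cells held either no Gpx3 read or a high level of it. No Gpx3 read was found in 66 cells of experiment 1 (46.5%, 95% Clopper-Pearson interval 38.1 to 55.03%) and in 25 cells of experiment 2 (24.04%, 16.2 to 33.4%). The interval covers the counting of cells and not differences between animals. The median that divided the classes was 360 CPM in experiment 1 and 2669 CPM in experiment 2, so the same label stands for different levels. High cells had medians of 4779 and 11765 CPM and maxima of 23089 and 43050 CPM, while low cells had medians of 0.0 and 0.637 CPM. In experiment 2 the low class still held 17 of 52 cells at or above 100 CPM, against 4 of 71 in experiment 1. The class boundary passes through a range, not a gap: the cells next above it had 376.3 and 407.6 CPM in experiment 1 and 2719 and 2977 CPM in experiment 2, the cells next below it 342.8 and 305.5 CPM and 2620 and 2054 CPM. In all, 11 cells of experiment 1 and 17 of experiment 2 lay within 2-fold of the boundary. The summed Gpx3 level was 5784 CPM in high and 17.3 CPM in low cells of experiment 1, and 15756 and 385 CPM in experiment 2. The gene lies at chr11:54902453-54910377 on the plus strand in GRCm38.

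**Figure D1:**
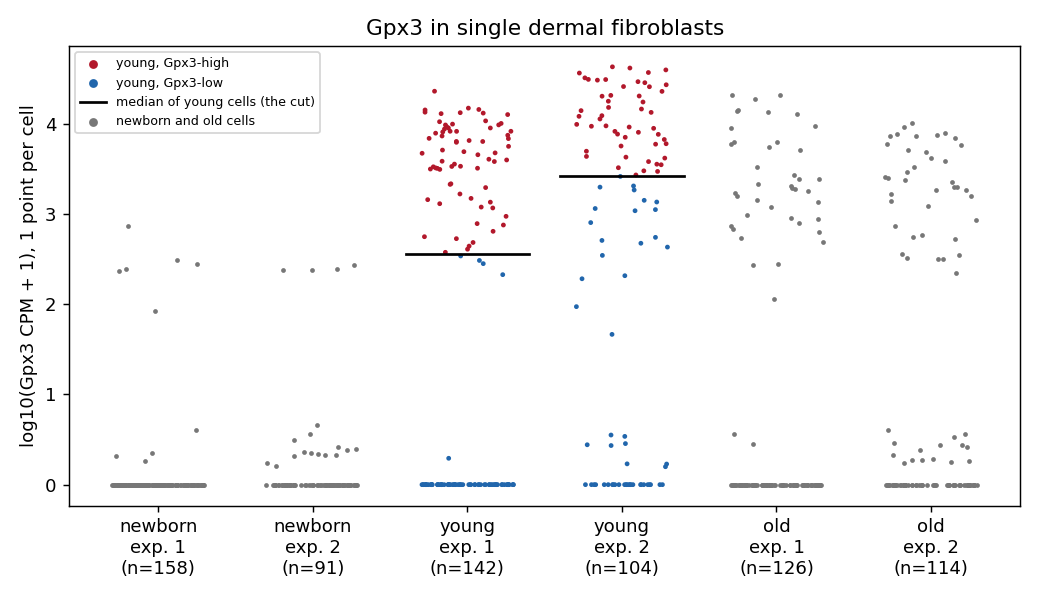
Gpx3 level of every kept cell, as log10(CPM + 1), by age and experiment; red and blue points are young Gpx3-high and Gpx3-low cells, the black lines are the medians that divide them (360 and 2669 CPM), and grey points are newborn and old cells. Most cells lie either at 0 or above 100 CPM, and few newborn cells reach 100 CPM.

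Across ages the share of cells at or above 100 CPM was 58.5% in young (75 and 69 cells in experiments 1 and 2), 32.9% in old (40 and 39 cells) and 3.61% in newborn cells (5 and 4 cells). Young plates differed in their share of Gpx3-high cells, as set by the median of each experiment. On plate P2004 of experiment 1, 8 of 29 cells were high (27.6%) and 72.4% had no Gpx3 read, whereas high cells made up 51.7 to 59.3% of the other plates of experiment 1 and 44.4 to 54.2% of the plates of experiment 2. In experiment 2 plate P2139 had the largest share of cells without a Gpx3 read (29.2%, against 22.2 to 23.1% on the others), a gap of very few cells on plates of 24 to 27.

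The classes also differed in measures of the libraries. High cells had fewer reads than low cells (medians 1083732 against 1251651 in experiment 1 and 1103502 against 1317388 in experiment 2) but more detected genes when every cell was thinned to 100000 reads (1818 against 1515, and 2107 against 1919). Without thinning, the medians were 2137 against 1872 genes and 2596.5 against 2362.5. Mitochondrial reads took a smaller share in high cells (1.96 against 2.73%, and 2.02 against 2.82%). The part of these differences in the gene-level results was not tested.

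Of the genes given as companions of Gpx3, Pcolce2 and Efemp1 did not follow the split and Aldh3a1 ran the other way. Pcolce2, an enhancer of procollagen C-proteinase, stood at 1216 CPM in high and 1642 CPM in low cells of experiment 1 and at 2453 and 2349 CPM in experiment 2, a log2 difference (high minus low, from edgeR) of -0.19 ± 0.19 (SE). Efemp1, a fibulin of the extracellular matrix, stood at 2865 and 3518 CPM and at 4329 and 4599 CPM, a difference of -0.19 ± 0.12. Both were read in 85.7% or more of the cells in each of 3 tiers of the young cells ordered by Gpx3. The classes are therefore called by their Gpx3 level only. Both classes carried fibroblast messages: Dcn, the proteoglycan decorin, was at 89203 and 90190 CPM in high and 97229 and 112694 CPM in low cells, and Cd34, stained for in the sort, at 3832 and 4128 CPM and 3220 and 4005 CPM. Pdgfra, stained for as well, was at 94.2 to 180 CPM. A list of 10 fibroblast genes that includes these summed to 149307 and 157271 CPM in high cells. In low cells the sums were larger, at 188237 and 180896 CPM. Of the 10 genes 2 were higher and 4 lower in high cells in both experiments, against 26.7% and 24.1% of all genes tested.

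Across 13123 genes other than Gpx3, edgeR's quasi-likelihood test, with the experiment as a block and p-values adjusted by Benjamini-Hochberg, called 0 genes at an adjusted p of 0.05 (0.0%). Every gene named below had an adjusted p of 1. At an unadjusted p under 0.05 stood 2.8% of the genes, 1.47% higher and 1.33% lower in high cells. The estimated biological coefficient of variation was 1.20 on 1 residual degree of freedom. Other tools run on the same cells made calls. DESeq2 called 995 genes higher (7.58%) and 875 lower (6.67%). limma, run on the mean log2(CPM + 1) of the cells of each class and experiment over the 4869 genes found in 10% or more of the cells of a class, called 56 higher (1.15%) and 7 lower (0.144%). Its measure rises with the share of cells in which a gene is detected, which was larger in high cells genome-wide, as given above. edgeR on sums per plate over 7311 genes called Apoe, Dpt, Fgl2, Pltp and Serpinf1 higher (0.0684%) and Fth1 lower (0.0137%). Plates of an experiment may share animals, so p-values over plates can be too small.

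The 12 genes with the smallest p in each direction, detected in 25% or more of the cells of the higher class and differing the same way in both experiments, are described next with their levels. They were ranked on this contrast, so their sizes are a description and the old cells further below give values in cells the ranking did not use. Plates hold the same cells as the sums, so agreement or separation over plates, here and below, is description as well. The share of all genes with such agreement or separation over plates is not given.

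On the higher side Fgl2 had the smallest p, and it is given first with 2 other secreted proteins. Fgl2, a fibrinogen-like secreted protein with immunoregulatory roles (chr5:21372642-21378374, plus strand), was at 1186 CPM in high and 263.4 CPM in low cells of experiment 1 and at 1367 and 273.4 CPM in experiment 2. The sums of the classes did not overlap; the ratio was 4.50-fold and 5.00-fold, the log2 difference 2.25 ± 0.15 (SE), and the direction held on 9 of 9 plates. Reads of Fgl2 were found in 63.4% of high and 28.2% of low cells in experiment 1 and in 82.7 and 34.6% in experiment 2; at 100000 reads per cell the shares were 63.4, 28.2, 78.8 and 32.7%. Pltp, the phospholipid transfer protein of lipoproteins, was at 351.1 and 123.3 CPM and at 418 and 127.8 CPM (1.61 ± 0.19). C3, the central complement protein, was at 1378 and 644 CPM and at 822 and 320.6 CPM (1.23 ± 0.16). Pltp and C3 were higher on 9 of 9 plates, and the plate values of Pltp did not overlap between classes (215.3 to 757 CPM in high, 52.3 to 177.1 CPM in low cells).

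Matrix genes and a hyaluronan synthase formed another set. Ogn, osteoglycin, a small leucine-rich proteoglycan (chr13:49608046-49624501), was at 1724 CPM in high and 427 CPM in low cells of experiment 1 and at 1632 and 608 CPM in experiment 2 (1.72 ± 0.22). On single plates it ranged from 1282 to 3288 CPM in high cells and from 0.100 to 1102 CPM in low cells, without overlap. Aspn, asporin, of the same family, was at 841 and 465 CPM and at 1216 and 623 CPM (0.91 ± 0.14). Dpt, dermatopontin, which binds decorin and organises collagen fibrils, was at 1335 and 567 CPM and at 1256 and 567 CPM (1.19 ± 0.13). Its mean over experiments was 1296 ± 56.3 CPM in high and 567 ± 0.244 CPM in low cells (SD, n = 2). Has1, a hyaluronan synthase, was at 1451 and 524 CPM and at 1182 and 576 CPM (1.25 ± 0.19). Spon2, a secreted matrix protein of the spondin family, was at 1294 and 675 CPM and at 841 and 514.4 CPM (0.82 ± 0.15).

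The remaining genes of the higher side act inside the cell or at its surface. Gfpt2, which starts the hexosamine pathway that supplies sugars for glycosylation and hyaluronan, was at 984 and 280 CPM and at 1194 and 404 CPM (1.69 ± 0.16), and its plate values did not overlap. Dpep1, a membrane dipeptidase that acts on glutathione conjugates, was at 802 and 333.3 CPM and at 1257 and 323.9 CPM (1.61 ± 0.26). Gadd45g, a stress-inducible growth arrest gene, was at 1748 and 897 CPM and at 1112 and 507.6 CPM (1.05 ± 0.14). Eif4a2, an RNA helicase of translation initiation, was at 681 and 342.1 CPM and at 771 and 442 CPM (0.90 ± 0.15), and higher on only 6 of 9 plates. For all of these the lowest high sum exceeded the highest low sum. Over all 13123 genes tested, 2281 had their sums apart in this way and 2074 in the opposite way. The named genes were ranked by p and had to agree between experiments, which favours such separation.

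On the lower side Aldh3a1 had the smallest p. It encodes an aldehyde dehydrogenase that oxidises aldehydes from lipid peroxidation and foreign compounds (chr11:61207537-61218421, plus strand). It was at 345.7 CPM in high and 1097 CPM in low cells of experiment 1 and at 506.4 and 1543 CPM in experiment 2. The classes did not overlap, the level in low cells was 3.17-fold and 3.05-fold that in high cells, and the log2 difference was -1.64 ± 0.14 (SE), lower on 8 of 9 plates. Aldh3a1 reads were found in 32.4% of high and 74.6% of low cells of experiment 1 and in 44.2 and 90.4% in experiment 2 (30.99, 69.01, 42.3 and 82.7% at 100000 reads per cell). The messages did not exclude each other: at or above 100 CPM, 24 cells of experiment 1 held both, 51 Gpx3 only, 46 Aldh3a1 only and 21 neither, and in experiment 2 the counts were 36, 33, 29 and 6.

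S100a4, a calcium-binding protein also called fibroblast-specific protein, was at 395 CPM in high and 795 CPM in low cells of experiment 1 and at 516.8 and 1513 CPM in experiment 2 (-1.28 ± 0.21), lower on 9 of 9 plates. Gm42674, an annotated gene overlapping it, differed in the same direction (-1.31 ± 0.31), and its reads cannot be told apart from those of S100a4 because the settings of the counting were not given in the sources used here. Ndufa4l2, a mitochondrial protein induced in low oxygen, was at 162.4 and 432 CPM and at 122.5 and 238.1 CPM (-1.19 ± 0.23). Nfe2l2, the transcription factor NRF2 that switches on antioxidant enzymes, was at 101.3 and 212.1 CPM and at 136.7 and 285.3 CPM (-1.06 ± 0.21). Igfbp7, an insulin-like growth factor binding protein, was at 396 and 668 CPM and at 505.02 and 893 CPM (-0.79 ± 0.14). Ccl11, the chemokine eotaxin, was at 1357 and 2414 CPM and at 1574 and 2312 CPM (-0.69 ± 0.14).

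Smaller or scarcer differences completed the lower side. Lum, lumican, the abundant leucine-rich proteoglycan, was at 14254 and 18425 CPM and at 14086 and 19188 CPM (-0.41 ± 0.09), lower on 9 of 9 plates. Crip1, a LIM-domain protein, was at 1656 and 2293 CPM and at 1091 and 1672 CPM (-0.54 ± 0.12). H2-K1, a class I MHC heavy chain with close paralogs, was at 941 and 1533 CPM and at 905 and 1403 CPM (-0.67 ± 0.13), but lower on only 6 of 9 plates. Cib3, of the calcium and integrin binding family, was at 17.5 and 187.9 CPM and at 30.1 and 124.2 CPM (-2.73 ± 0.55). Cgref1 was at 181.1 and 397 CPM and at 84.4 and 164.9 CPM (-1.05 ± 0.21), and alone among the named lower genes its high and low sums overlapped between experiments. The mitochondrial message mt-Cytb is described with its group below.

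**Figure D2:**
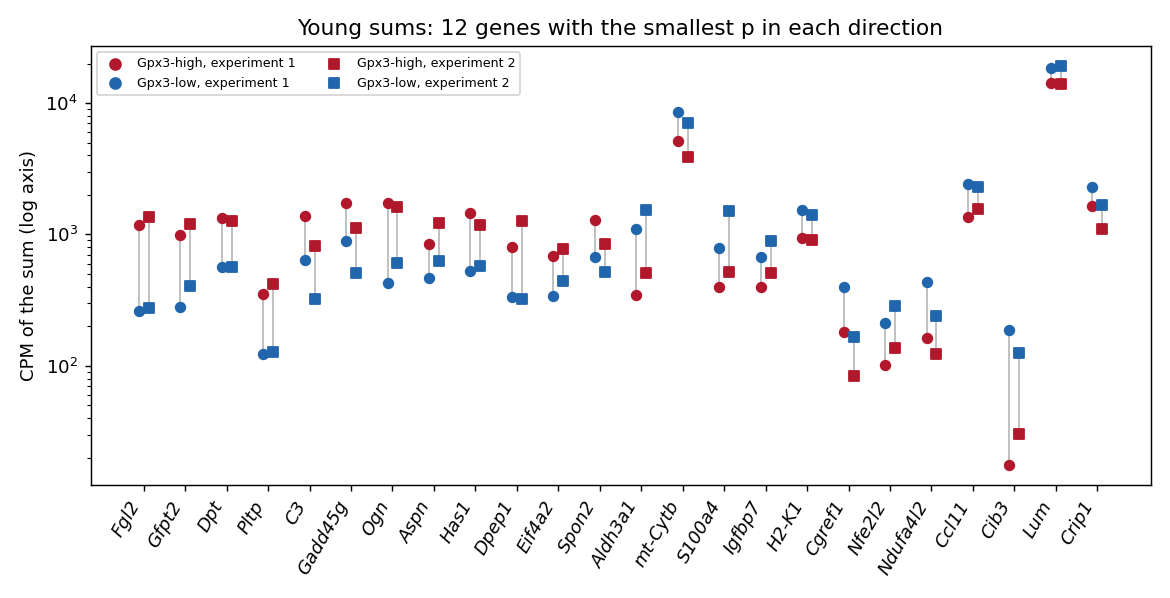
Level of the 24 genes in the 4 young sums, in CPM on a log axis; circles are experiment 1 and squares experiment 2, red Gpx3-high and blue Gpx3-low. Both experiments place each gene on the same side, with Fgl2 at 1186 and 1367 CPM against 263.4 and 273.4 CPM.

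Cells were also ordered by Gpx3 and divided into 3 tiers per experiment. Cells without a Gpx3 read are tied, so the lower tier of experiment 1 held 66 cells, its middle tier 28 and its upper tier 48, while experiment 2 had 35, 34 and 35. At 100000 reads per cell, Aldh3a1 was read in 68.2, 60.7 and 18.8% of the lower, middle and upper tier of experiment 1 and in 82.9, 85.3 and 20.0% in experiment 2, so the largest step in this share lay between the middle and the upper tier. S100a4 had the same shape, with 80.3, 89.3 and 58.3% and with 88.6, 88.2 and 57.1%. The mean levels of both genes fell from each tier to the next. Aldh3a1 was at 1095, 641 and 218.4 CPM in experiment 1 and at 1594, 1062 and 293.1 CPM in experiment 2. S100a4 was at 839, 681 and 273.9 CPM and at 1473, 1104 and 268.7 CPM. Dpt was read in 60.6, 82.1 and 100% and in 65.7, 94.1 and 94.3%, with mean levels of 525.9, 938 and 1649 CPM and of 429, 750 and 1378 CPM, so its level was ordered by tier in both experiments. Cxcl12, a chemokine that binds CXCR4, was read in 4.55, 14.3 and 35.4% and in 17.1, 20.6 and 77.1%. Sparc, a collagen-binding matricellular protein read in 94.3% or more of every tier, had mean levels of 15100, 15430 and 6723.5 CPM and of 14196, 17613 and 7742 CPM. Its sums in high and low cells of experiment 2 were close (12556 and 12714 CPM), and the middle tier there is divided between the classes.

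**Figure D3:**
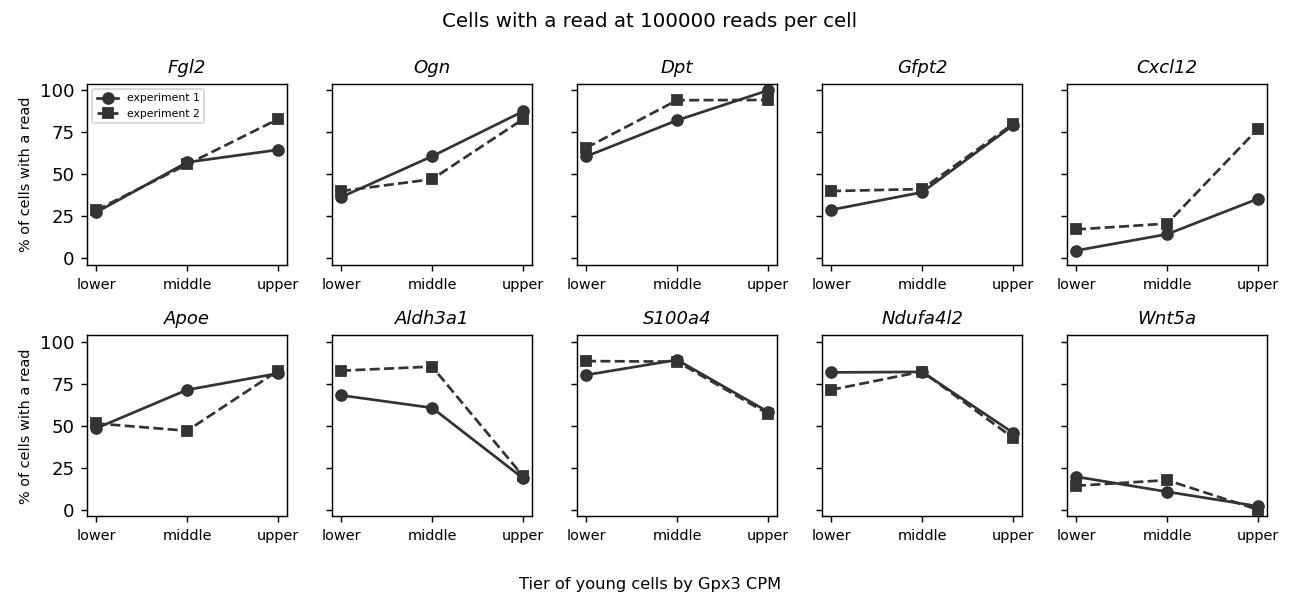
Share of young cells with at least 1 read of each of 10 genes after thinning to 100000 reads, by tier of Gpx3 level and experiment (solid circles experiment 1, dashed squares experiment 2). Aldh3a1 is lowest in the upper tier (18.8 and 20.0%), and Cxcl12 highest there (35.4 and 77.1%).

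Groups of genes were read against all 13123 tested genes, of which 26.7% were higher and 24.1% lower in high cells in both experiments. No member of any list passed edgeR's test, so the counts below are of direction only.

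Messages encoded by mitochondrial DNA were lower as a block. Of 13 tested, 12 were lower in both experiments and 0 higher, with a median log2 difference of -0.54, against 0.05 over all genes, and -0.31 with a cut at the median of each plate. mt-Cytb, a subunit of respiratory complex III, was at 5149 CPM in high and 8491 CPM in low cells of experiment 1 and at 3918 and 7031 CPM in experiment 2 (-0.78 ± 0.10), lower on 9 of 9 plates. mt-Nd4 of complex I (-0.63 ± 0.15), mt-Atp6 of the ATP synthase (-0.47 ± 0.11) and mt-Co1 of complex IV (-0.40 ± 0.10) were also lower on 9 of 9 plates. These are the reads behind the smaller mitochondrial share given above, which is also a measure of cell quality, and the 2 cannot be told apart here. Cytoplasmic ribosomal protein messages lay on the other side, with 22 of 35 higher in both experiments, 0 lower and a median of 0.24. Rpl4 was at 1233 and 901 CPM and at 1494 and 1077 CPM (0.46 ± 0.12).

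Complement genes were mostly higher, with 10 of 13 higher in both experiments, 1 lower and a median of 0.71. Beside C3, C1s1, a protease of the classical pathway, was at 653 and 375.9 CPM and at 734 and 463 CPM (0.73 ± 0.15). Serping1, the C1 inhibitor, was at 9043 and 7118 CPM and at 8772 and 6710 CPM (0.37 ± 0.09). C4b, whose reads may be split with the near-identical C4a, was at 132.3 and 28.9 CPM and at 91.5 and 61.6 CPM (1.38 ± 0.62).

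The enzymes nearest to Gpx3 in function did not move as a block. Of 23 other peroxidases and antioxidant enzymes 11 were higher and 5 lower in both experiments (median 0.19). Prdx2, a peroxiredoxin, was at 588 and 295.5 CPM and at 374.6 and 263.8 CPM (0.75 ± 0.22), and Prdx6 at 759 and 595 CPM and at 1016 and 621 CPM (0.53 ± 0.17). Gpx4, the glutathione peroxidase of membrane lipids, was at 140 and 192.7 CPM and at 156.6 and 212.95 CPM (-0.45 ± 0.22). Of 19 selenoprotein and selenium-handling genes 6 were higher and 7 lower (median -0.08, but 0.19 with limma). Selenop, the secreted selenium carrier, was at 715.1 and 610 CPM and at 1099 and 969 CPM (0.20 ± 0.13), and Selenof at 735 and 946 CPM and at 712.2 and 950 CPM (-0.39 ± 0.13). Of 17 glutathione synthesis and transferase genes 5 were higher and 0 lower in both experiments (median 0.25, but -0.010 without experiment 1), among them Mgst1 at 1372 and 1015 CPM and at 1717 and 1407 CPM (0.36 ± 0.13).

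Matrix groups were mixed. The 9 small leucine-rich proteoglycans divided into 4 higher and 3 lower: Ogn, Aspn and Omd, osteomodulin (1.09 ± 0.31), with the higher ones, Lum and Dcn (-0.22 ± 0.09) with the lower. Of 21 collagens 6 were higher and 6 lower in both experiments. Col1a1 was at 11950 CPM in high and 20251 CPM in low cells of experiment 1 but at 12634 and 10962 CPM in experiment 2, and Col1a2 and Col3a1 likewise changed side between experiments. Of 18 elastic fibre genes 5 were higher and 7 lower, with Fbln5, fibulin 5, at 333.5 and 520 CPM and at 510.8 and 766 CPM (-0.61 ± 0.15). Serpinf1, the antiangiogenic factor PEDF, was at 6164 and 3458 CPM and at 4694 and 3406 CPM (0.65 ± 0.15) and higher on 9 of 9 plates, whereas the gelatinase Mmp2 was at 878 and 1172 CPM and at 1068 and 1725 CPM (-0.55 ± 0.15).

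**Figure D4:**
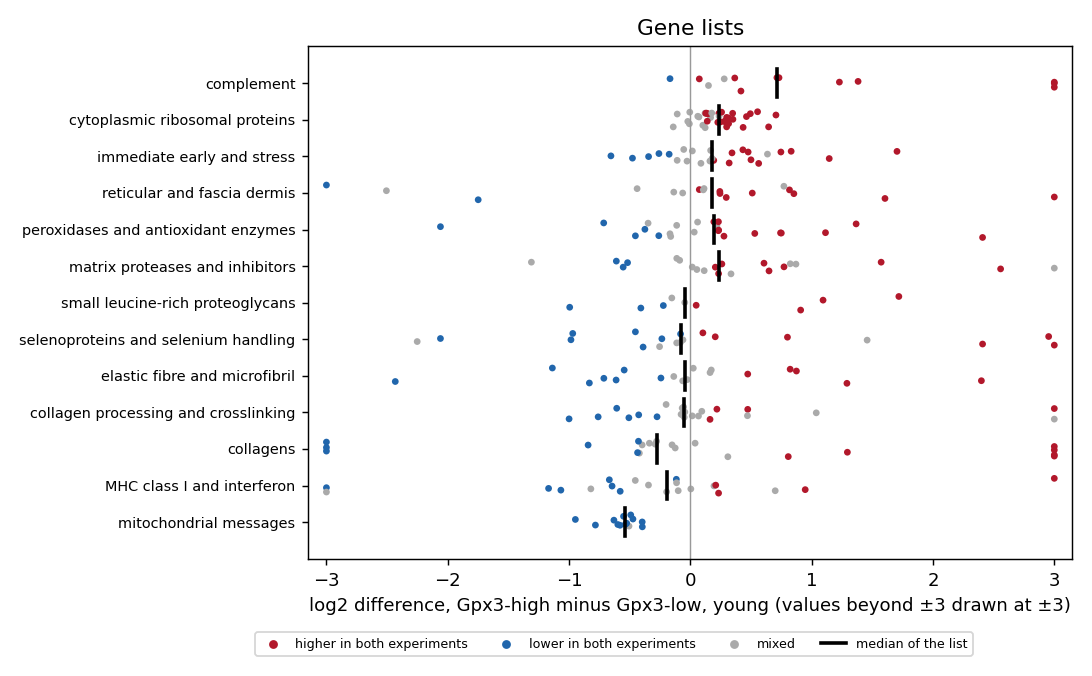
log2 difference between Gpx3-high and Gpx3-low young sums for the tested members of 13 gene lists; each point is a gene, red higher and blue lower in both experiments, grey mixed, and black bars are list medians. Mitochondrial messages lie left of 0 (median -0.54) and complement genes mostly right of it (0.71).

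Of 18 reticular and fascia genes 9 were higher and 2 lower in both experiments and 7 were mixed (median 0.18). The 20 genes of this list summed to 15485 CPM in high and 11607 CPM in low cells of experiment 1. In experiment 2 the sums were close, at 15448 and 14900 CPM. Dpp4 and Ly6a, given next, are among the 9 higher genes. Dpp4, the CD26 antigen, was at 470 and 254.97 CPM and at 626 and 371.5 CPM (0.82 ± 0.16), but higher on only 5 of 9 plates. Ly6a, the Sca1 antigen, was at 3547 and 2755 CPM and at 5110 and 4688 CPM (0.24 ± 0.12). Papillary genes were scarce: 14 of them summed to 280 and 321.1 CPM in high and 384.2 and 590 CPM in low cells, and 2 of 10 tested were higher and 4 lower in both experiments. Wnt and BMP ligands and antagonists had 4 of 18 higher and 10 lower (median -0.44). Wnt5a, a non-canonical Wnt ligand, was at 2.00 and 65.5 CPM and at 0.221 and 70.96 CPM. Its reads were found in few cells: 4.23 and 1.92% of high and 22.5 and 19.2% of low cells. With Gpx3 cut at 100 CPM, 4 cells on each side of experiment 2 held Wnt5a at or above 100 CPM (5.80 against 11.4%), so its near-absence depends on the cut.

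Among signals to immune cells, Ccl2, a chemokine for monocytes, was at 659 and 195.7 CPM and at 1068 and 507.5 CPM (1.41 ± 0.25), opposite to Ccl11. Cxcl12 was at 272.9 and 20.8 CPM and at 820 and 230.9 CPM (2.77 ± 0.65), higher on 9 of 9 plates. Of 21 class I MHC and interferon genes 4 were higher and 7 lower (median -0.20, but 0.22 with limma), with B2m at 4144 and 7228 CPM and at 3891 and 4974 CPM (-0.58 ± 0.17). Apoe, the lipid carrier, was at 3434 and 921 CPM and at 3037 and 1714 CPM (1.36 ± 0.35) and higher on 9 of 9 plates. Of 25 immediate early and stress genes 11 were higher and 5 lower (median 0.18, but -0.036 without experiment 2), with Atf3 at 891 and 515.2 CPM and at 2069 and 732 CPM (1.14 ± 0.25). Such genes respond to tissue digestion, and their part in the other differences was not tested.

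Some list genes were read in cells of 1 class only, most of them in few cells. A count of 0 in all cells of a class, pooled over both experiments, allows a share of up to 2.44%. This limit covers the counting of cells and not differences between experiments or animals. The share of all genes read in 1 class only was not computed, and genes read in few cells can fall in 1 class by sampling alone. Igfbp2, an insulin-like growth factor binding protein, was read in 0 high cells and in 13.01% of low cells (11 and 5 cells). Sfrp1, a secreted Wnt antagonist, was read in 17.1% of high cells (7 and 14) and in 0 low cells. Its relative Sfrp4 was read in 10.6% of high cells (10 and 3) and in 0 low cells, and the interferon-induced Ifi27l2a in 11.4% (9 and 5) and in 0. Fitted differences of these genes depend on the prior count and are not given. In experiment 2 a single cell gave 80.2% of the Sfrp4 reads and 71.2% of the Ifi27l2a reads. For Igfbp2 and Sfrp1 the largest share from a single cell there was 50.6 and 49.6%.

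The defining markers of other skin cells were mostly at 0, but some markers were read in both classes. Mast and erythroid markers had no read, and Ptprc (CD45), Kit (CD117), Epcam, Cdh5 and Krt14 were at 0 in all 4 sums. The 8 endothelial markers summed to 47.9 and 36.5 CPM in high and 98.2 and 43.9 CPM in low cells, mostly from Plvap, with 5 of the 8 at 0. The 8 mural markers summed to 77.97 and 163.6 CPM in high and to 89.6 and 78.2 CPM in low cells, with Rgs5, Myh11, Cspg4 and Notch3 at 0, and at least 1 of them was read in 19.7% of high and 7.04% of low cells of experiment 1 and in 30.8 and 19.2% in experiment 2. Of the 8 epithelial markers 7 were at 0, and the remaining Krt10 was at 44.9 and 32.1 CPM in high and 33.3 and 53.3 CPM in low cells, read in 25.4 to 46.2% of the cells. The 10 immune markers summed to 170 and 55.5 CPM in high and 164.2 and 40.6 CPM in low cells, mostly from Csf1r, with 6 of the 10 at 0. Melanocyte markers summed to 10.6 and 15.2 CPM in high and 0.0810 and 0.107 CPM in low cells, from Mlana in 6.50% of high cells, with Dct and Tyrp1 at 0. The part of these reads in the differences was not tested.

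Old fibroblasts gave the 24 genes in cells that had no part in choosing them. No Gpx3 read was found in 66.7 and 52.6% of old cells of experiments 1 and 2, so their medians were 0, and old cells were divided at 100 CPM, a level chosen after the values were seen, into 79 high cells (40 and 39) and low cells (86 and 75). In old sums 11 of the 12 higher genes were again higher in both experiments (background 24.7%), the exception being Eif4a2, and 11 of the 12 lower genes were lower in both (background 27.6%), the exception being Cib3. Fgl2 was at 392 CPM in high and 150.9 CPM in low old cells of experiment 1 and at 447 and 133.3 CPM in experiment 2, a log2 difference of 1.56 ± 0.22 (SE). Ogn was at 693 and 193.4 CPM and at 1807 and 637 CPM (1.67 ± 0.17). Aldh3a1 was at 964 and 1446 CPM and at 1104 and 1996 CPM (-0.72 ± 0.14), and S100a4 at 634 and 1111 CPM and at 718.1 and 1645.5 CPM (-1.003 ± 0.17). For these genes, Dpt (0.29 ± 0.17) and Pltp (0.59 ± 0.17) included, the high and low sums of each old experiment lay on the same side as in young cells.

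In old cells edgeR, after Benjamini-Hochberg adjustment, called 0 of 12800 genes (0.0%, with 1.52% at an unadjusted p under 0.05), DESeq2 1.21% of them higher and 2.88% lower, and limma 6 higher (0.121%: Adh7, Cilp, Gas6, Ogn, Serpinf1 and Vps33a) and 0 lower (0.0%). The test of whether the Gpx3 contrast differs between young and old called 0 of 14784 genes (0.0%, edgeR interaction term, with 2.35% at an unadjusted p under 0.05), so a smaller old difference, as for Aldh3a1, was not shown to differ in size. Of the 56 genes limma called higher in young cells, 38 were higher in both old experiments and 4 lower in both. Over the 4869 genes limma tested in young cells, 24.7% were higher and 27.6% lower in both old experiments. Of the 7 called lower in young cells (Aldh3a1, Frmd8, Ndufa4l2, S100a4, Sparc, Vit and Wnt5a) 6 were lower in both old experiments. The other, Frmd8, was higher in both (19.1 against 0.669 CPM and 24.7 against 6.11 CPM). Old cells lay on the same plates as young cells and old high cells also had more detected genes at 100000 reads (1650 against 1427.5 and 1787 against 1684), so the comparison shares those features.

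**Figure D5:**
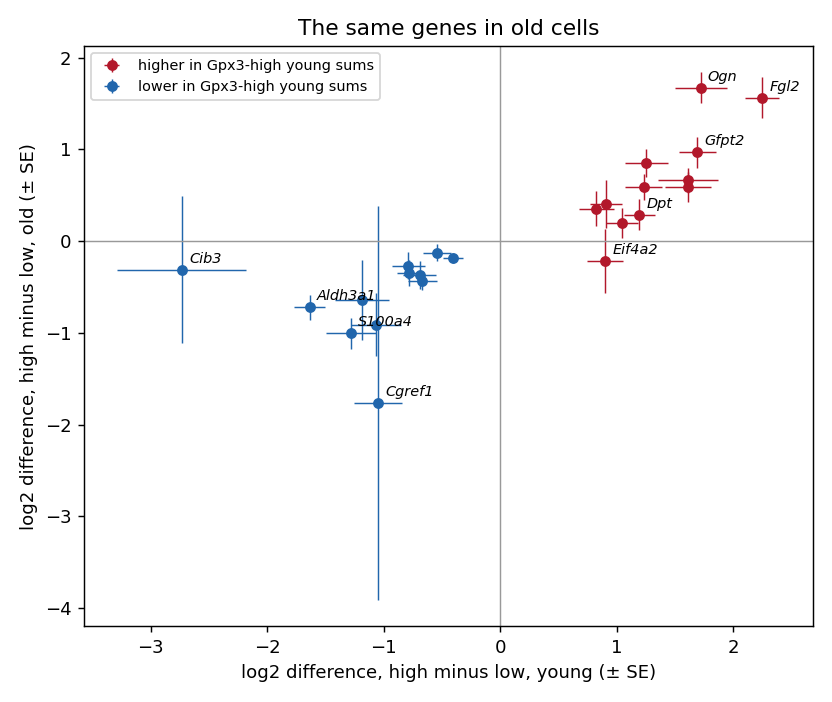
log2 difference between Gpx3-high and Gpx3-low sums in young (horizontal axis) and old cells (vertical axis) for the 24 genes, with standard errors from edgeR; red genes were higher and blue genes lower in young high sums. Fgl2 lies at 2.25 and 1.56 and Aldh3a1 at -1.64 and -0.72, while the old error of Cgref1 is the widest drawn (2.15).

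Among 2209 genes read in at least 25% of the young cells of both experiments, the 10 with the highest mean Spearman correlation with Gpx3 across the cells of each experiment (cells share plates and depth) were Aspn, Dpep1, Dpt, Fgl2, Gfpt2, Ifi205, Ifi211, Ogn, Pltp and Serpinf1. Ogn had 0.56 and 0.50, Dpt 0.51 and 0.46, and Fgl2 0.39 and 0.49. In old cells Ogn had 0.36 and 0.38, Dpt 0.11 and 0.10, and Fgl2 0.12 and 0.04. The 5 with the lowest were Aldh3a1 (-0.49 and -0.61), mt-Cytb (-0.47 and -0.49), S100a4 (-0.39 and -0.57), Ndufa4l2 (-0.45 and -0.39) and Gm42674. Ifi205 and Ifi211 belong to a cluster of similar interferon-inducible genes, and reads may be split between them.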

How the data were processed

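Raw read counts per gene and cell were deposited by the authors, as 1 table for each plate. GRCm38 and FastQC are named in the submitters' processing notes, while aligner, counter and strand setting were not given in the sources used here. Of the nonzero counts 75.2% were even. The 1044 columns with values, of 1049, were used; columns of plate pairs sequenced in 2 runs (median correlations per well 0.994 and 0.994) were added, giving 861 wells, 287 of them young. The 51777 gene entries common to both annotations were kept and matched to GENCODE M21 (51633, with 99.9% of reads). Cells had at least 50000 reads, 1000 genes and at most 25% mitochondrial reads, and 246 young cells passed (142 and 104; 123 high and 123 low). At an unadjusted p under 0.05 edgeR had 367 young genes (193 higher, 174 lower), 194 old genes and 348 interaction terms; DESeq2 called 155 old genes higher and 368 lower. No doublet caller was run on these singly sorted cells. Confidence intervals are 95% and cover counting only; PCR reads are not independent molecules.

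Reads were added per experiment and class. The experiment was a block because both sums of an experiment hold cells of the same age, plates and experiment, so the pairing is by construction. edgeR 4.0.16 (TMM, low-count filter, robust quasi-likelihood fit), DESeq2 1.42.0 and limma 3.58.1 ran in R 4.3.3, with Benjamini-Hochberg adjustment and a threshold of 0.05. The edgeR step was tested on counts simulated for 13055 genes. It recovered 1 of 95 genes changed 1.5-fold and 26 of 105 changed 4-fold, and it made 11 false calls. Most changes of these sizes were thus missed, so a count of 0 calls does not show that no gene differs. limma used a pseudocount of 1 CPM. Named genes were the 12 of smallest p in each direction that agreed between experiments and had a read in 25% of the cells of the higher class, since none passed; the 10 most and 5 least correlated with Gpx3; the companion genes; and list members of smallest p, defining markers and further members chosen after their values were seen. Members and lists were chosen with earlier results of these data known. The planned median split of old cells could not be made (median 0), and 100 CPM replaced it. Alternatives changed the tool, scaling, filter, cut, cells and block, or left out an experiment. Newborn cells were too rarely Gpx3-positive to be divided.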

Additional observations from a re-analysis of the deposited data

Results flagged for a closer look

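Within experiment 1, plate P2004 stood apart from the other 4 plates of young cells: 27.6% of its cells were Gpx3-high and 72.4% had no Gpx3 read. Its gap to the nearest plate, relative to the range, exceeded the Dixon limit. In experiment 2, plate P2139 was flagged against the other 3 by its share of cells without a Gpx3 read (29.2%, against 22.2 to 23.1%). Plates there held only 24 to 27 young cells each, so this gap rests on very few cells. The share of high cells on plate P2139 (54.2%) lay near the others. Of 12 such checks chance flags about 1 in 20. Without plate P2004, edgeR again called 0 genes in either direction.

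Gpx3 also appeared in newborn cells, which the comparisons do not use: 3.61% of them (5 and 4 cells of experiments 1 and 2) reached 100 CPM.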

How the results depend on the processing

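The count of genes called in young cells depended on the tool. It was 0 higher and 0 lower with edgeR on experiment sums, against 995 and 875 with DESeq2, 56 and 7 with limma on mean log2 levels, and 5 and 1 with edgeR on plate sums. In old cells 0 genes in all were called with edgeR, 523 with DESeq2 and 6 with limma. The cause of these gaps was not tested. The fit without the replicate block, which ignores the pairing, called 0 and 0 genes, with 761 at an unadjusted p under 0.05. edgeR also called 0 and 0 with RLE scaling, without a filter, with genes read in 10% of cells, thinned cells, a cut at the plate median (where all 29 cells of plate P2004 became high), the outer tiers, a mitochondrial limit of 10% and a joint fit with old sums, and with 2 settings added after the data were seen (a cut at 100 CPM and leaving out plate P2004). Leaving out an experiment gave 0 and 0 each time; the lone sums were then assumed to vary like the old ones.

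Of 61 named genes checked, 54 kept their direction under every setting run and 7 reversed under at least 1. With limma, Efemp1 reversed to 0.53, Pcolce2 to 0.28, Pdgfra to 0.25 and Selenof to 0.057. Leaving out each replicate in turn, Col1a1 ranged from -0.76 to 0.21, Col1a2 from -0.68 to 0.098, Col3a1 from -0.78 to 0.099 and Pcolce2 from -0.44 to 0.064, positive without replicate 1 in each case. Of 28 medians of gene lists, those over all genes included, 12 changed sign with limma, 9 without replicate 1, 7 with the cut at the plate median and 0 to 6 under each other setting. Among lists with a median given above, the sign changed for selenoproteins (range -0.21 to 0.19), class I MHC and interferon (-0.51 to 0.22), glutathione (-0.010 to 0.56) and immediate early and stress genes (-0.036 to 0.71). It held under every setting for mitochondrial messages (-0.75 to -0.31), complement (0.47 to 1.41), ribosomal proteins (0.14 to 0.50), antioxidant enzymes (0.032 to 0.505), reticular and fascia genes (0.061 to 0.78) and Wnt and BMP genes (-1.56 to -0.23).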
